A study of Mus musculus with 3 samples.

Results

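The genes that encode the pore and auxiliary subunits of potassium, sodium and calcium channels are described here by the Isl1 binding sites assigned to them. Members were the peaks whose deposited gene name starts with Kcn, Scn or Cacn, leaving out the atrial G-protein-gated channel genes Kcnj3 and Kcnj5, after identical repeated lines were counted once. This gave 135 of 14082 distinct peaks (0.959%), of which 95 were assigned to potassium, 10 to sodium and 30 to calcium channel genes. They fell on 84 of the 140 channel genes of the RefSeq gene table, which holds 96 potassium genes (4 of them non-coding RNA genes named after a channel), 18 sodium genes and 26 calcium genes.

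Peaks were mapped by ChIP-Seq, the sequencing of chromatin fragments that an antibody has enriched. The cells were cardiac progenitor cells (CPCs) differentiated for 5 days from mouse E14 Tg(Nkx2-5-EmGFP) embryonic stem (ES) cells, a single line with a green fluorescent reporter for Nkx2-5, an early cardiac transcription factor gene, grown with BMP4, Activin A, VEGF, bFGF and FGF10. There were 3 samples, 2 Isl1 ChIP replicates (DSHB antibody, clone 39.4D5) and 1 input of unenriched chromatin, all from this line at day 5 and given the same factors, with no sort stated in the labels of these samples. A single deposited list combines both ChIP replicates and holds positions, the signed distance to the closest transcription start site (TSS) and a gene name, with no peak height, read number or value per sample, so the depth is unknown here and no spread between replicates can be given. For the same reason no test between the channel classes was made, and the 95% intervals given below cover counting error within this list and nothing else. Expression was not measured in these files, so a peak near a gene says where Isl1 was enriched over input and nothing about the level of that gene.

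Voltage-gated channels open and close with the membrane potential, and in cardiac muscle their sequence of opening shapes the action potential: sodium channels carry the upstroke, calcium channels the plateau and the trigger for contraction, and potassium channels the repolarisation and the resting potential. Each channel has a pore, made of pore subunits, and most have auxiliary subunits that set gating and delivery to the membrane. Most of these genes are also used in neurons, and many are known for their neuronal roles. Isl1, a transcription factor with LIM domains and a homeodomain, is used by cardiac progenitors, motor neurons and pancreatic islets.

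Calcium channel genes carried an Isl1 peak most often and sodium channel genes least often, with intervals that overlapped. A peak was assigned to 19 of 26 calcium genes (73.1%, Wilson interval 53.9 to 86.3%), to 57 of 96 potassium genes (59.4%, 49.4 to 68.7%) and to 8 of 18 sodium genes (44.4%, 24.6 to 66.3%), or to 84 of 140 channel genes together (60.0%, 51.7 to 67.7%), where 39.1% of all 21027 protein-coding genes had one. The order was the same for peaks within 1 kb of the TSS, called promoter peaks below. These were found at 16 calcium genes (61.5%, 42.5 to 77.6%), 36 potassium genes (37.5%, 28.5 to 47.5%) and 4 sodium genes (22.2%, 9.00 to 45.2%), against 24.2% of protein-coding genes. The calcium and the potassium shares lay above the protein-coding share with their whole interval, and the sodium interval included it.

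Counted as peaks per gene, calcium genes had 1.15 peaks (30 peaks on 26 genes, exact Poisson interval 0.778 to 1.65), potassium genes 0.990 (0.801 to 1.21) and sodium genes 0.556 (0.266 to 1.02), and all protein-coding genes 0.581. Peaks at single-copy sequence, explained further down, alone gave 0.846 per calcium, 0.583 per potassium and 0.389 per sodium gene, the potassium value falling below its interval. The 0.581 of protein-coding genes counts multi-copy peaks as well. It cannot be set beside these single-copy values, and a single-copy value for protein-coding genes is not given here. Peaks were unevenly spread over the genes. Among potassium genes 39 had no peak, 33 had 1, 16 had 2, 4 had 3, 3 had 4 and 1 gene had 6. Among calcium genes 7 had none, 12 had 1, 3 had 2 and 4 had 3, while no sodium gene had more than 2. At least 2 peaks were assigned to 33 of the 140 channel genes (23.6%, 17.3 to 31.2%), against 11.0% of protein-coding genes. Channel genes are also far from their neighbours. The genomic territory, meaning the stretch closer to the start sites of a gene than to those of its neighbours, had a median of 105 kb for potassium, 123 kb for sodium and 97.1 kb for calcium genes, against 46.5 kb for all protein-coding genes. Per Mb of territory, peaks beyond 10 kb of the TSS numbered 2.05 (1.50 to 2.74) at potassium, 2.42 (0.784 to 5.64) at sodium and 2.60 (1.30 to 4.65) at calcium genes, intervals that all included the 2.38 of protein-coding genes. Across 135 channel genes with a value, territory and the number of peaks beyond 10 kb had a Spearman rho of 0.46, beside 0.44 across 20238 protein-coding genes, and both are descriptions across genes of a single list.

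**Figure D1:**
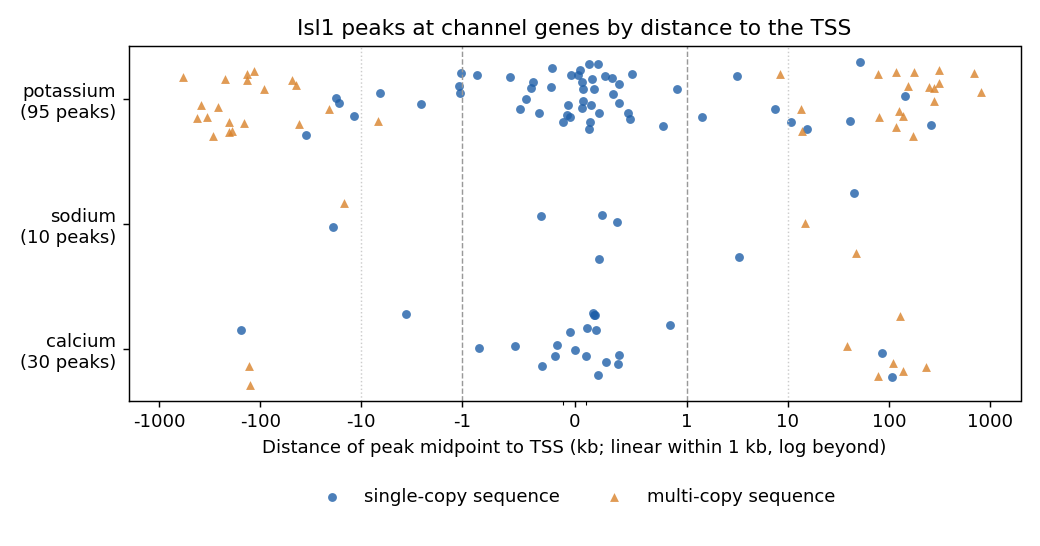
Signed distance of each of the 135 channel peaks to its deposited TSS in kb (negative, upstream), on an axis that is linear within 1 kb (dashed lines) and logarithmic beyond, by channel class and with random vertical offsets. Circles are peaks at single-copy sequence and triangles peaks at multi-copy sequence, and all 60 peaks within 1 kb are circles while 48 of the 63 peaks beyond 10 kb (dotted lines) are triangles.

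Calcium peaks lay near the TSS more often than potassium or sodium peaks, again with overlapping intervals. Within 1 kb of the TSS lay 18 of 30 calcium peaks (60.0%, 42.3 to 75.4%), 38 of 95 potassium peaks (40.0%, 30.7 to 50.1%) and 4 of 10 sodium peaks (40.0%, 16.8 to 68.7%), against 38.5% of all peaks. Between 1 and 10 kb lay 1 calcium, 10 potassium and 1 sodium peak, or 12 of 135 together (8.89%), against 10.5% of all peaks. From 10 to 100 kb lay 3 calcium, 17 potassium and 5 sodium peaks (25 together, 18.5%, interval 12.9 to 25.9%), against 28.1%. Over 100 kb away lay 8 calcium (26.7%, 14.2 to 44.4%) and 30 potassium peaks (31.6%, 23.1 to 41.5%), against 23.0% of all peaks, and 0 of 10 sodium peaks, an interval that reaches 27.8%. Taken as a single class, peaks beyond 10 kb made up 36.7% of calcium, 49.5% of potassium and 50.0% of sodium peaks, against 51.1% of all peaks. Of single-copy peaks alone, 13.6% of calcium, 17.9% of potassium and 28.6% of sodium peaks lay beyond 10 kb, beside 1354 of 7536 single-copy peaks in the whole list. With a limit of 20 kb in place of 10 kb, 20.0% of sodium peaks lay beyond it.

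**Figure D2:**
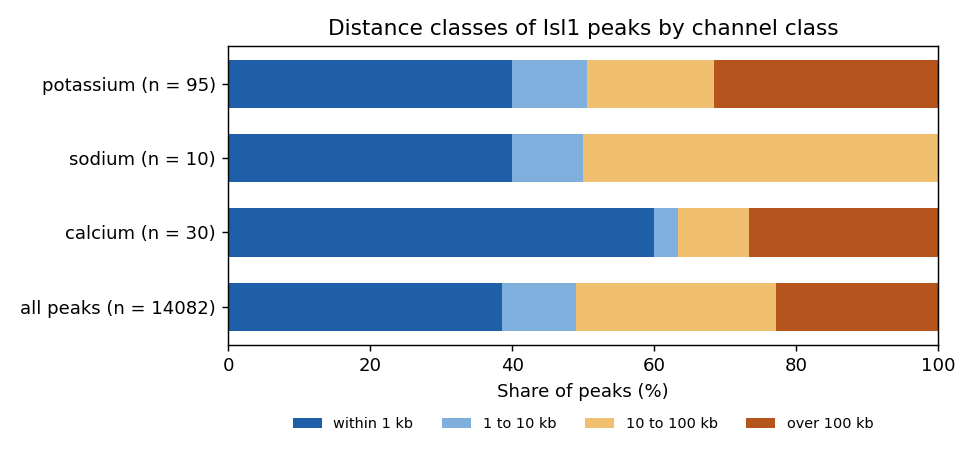
Share of peaks (%) in 4 classes of distance to the TSS for potassium (95 peaks), sodium (10 peaks) and calcium (30 peaks) channel genes and for all 14082 peaks. Calcium channel genes have the largest share within 1 kb, 60.0% against 38.5% of all peaks, and sodium channel genes have no peak over 100 kb away.

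Peak width gave a similar picture in each class. The median width was 1036 bp (order-statistic interval 937 to 1120) over the channel peaks and 947 bp over all peaks, with 1139 bp at calcium, 1033 bp at potassium and 973 bp at sodium genes. Extremes were the peak assigned to Kcnk16, a two-pore-domain channel gene, of 3986 bp and 13771 bp from its TSS, and a peak of 305 bp at Kcnj4, an inward rectifier gene, -2537 bp from its TSS. The Kcnk16 peak was intergenic and multi-copy, a class explained below. Peaks that spanned the TSS numbered 54 of 135 (40.0%, 32.1 to 48.4%), against 36.2% of all peaks, and these were 54 of the 60 promoter peaks. The midpoint lay upstream of the TSS in 21 of the 60 promoter peaks (35.0%, 24.2 to 47.6%), an interval above the 19.0% found in the promoter peaks of the whole list.

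Calcium channel pore subunits had more peaks per gene than any other subfamily, 1.70 (17 peaks on 10 genes, 0.990 to 2.72). Of the 10 Cacna1 genes, 7 had a promoter peak, Cacna1e had distal peaks alone, and Cacna1f and Cacna1s, the pores of retinal and of skeletal muscle L-type channels, had none. Cacna1c, which encodes the main L-type pore of working myocardium, had 2 promoter peaks separated by 99 bp, with midpoints at -174 and 854 bp. These are distances to the deposited TSS. In the GENCODE annotation of mm9 these midpoints lay in an intron of Cacna1c. The closest protein-coding start there was that of another gene, Dcp1b, at -66583 and -67611 bp. Cacna1d, the L-type pore of pacemaker and endocrine cells, had 1 promoter peak at -155 bp. The windows of 120 bp printed here are the stretches of these peaks closest to the midpoint that lie upstream of the deposited TSS and outside annotated exons (mm9, written 5′ to 3′ on the strand of the gene), with CpG dinucleotides in capitals because CpG density set the promoter peaks apart, as described further down.
Cacna1c, chr6:119058627-119058746, minus strand: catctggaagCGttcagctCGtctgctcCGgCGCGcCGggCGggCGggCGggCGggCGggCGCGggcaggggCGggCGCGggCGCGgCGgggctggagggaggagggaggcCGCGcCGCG
Cacna1d, chr14:31166767-31166886, minus strand: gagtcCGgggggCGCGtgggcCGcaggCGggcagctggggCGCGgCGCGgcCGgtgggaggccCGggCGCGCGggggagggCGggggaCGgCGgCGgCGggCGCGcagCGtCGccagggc
Each window held 23 CpG. At the peak centres, the 200 bp around the Cacna1d midpoint had 42 CpG and 87.5% GC, the most CpG of any channel peak, and those of the Cacna1c peaks had 36 and 23 CpG.

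The T-type pores, which open at low voltage and serve pacemaking, each had a promoter peak, at 282 bp for Cacna1g, at 115 bp for Cacna1h and at 386 bp for Cacna1i. The Cacna1h peak was 1952 bp wide, from 25569637 to 25571589 on chromosome 17, with its midpoint in a UTR of that gene. Cacna1g had a further peak at 38586 bp and Cacna1i at 85455 and 108255 bp, all within the gene and the last in a coding exon of Cacna1i. Pores known mainly from neurons had peaks as well. Cacna1a (P/Q-type) had promoter peaks at -855 and 180 bp separated by 30 bp, and an intronic peak at 77586 bp, while Cacna1b (N-type) had a promoter peak at 398 bp and intronic peaks at 110664 and 128608 bp. Cacna1e (R-type) had 2 intergenic peaks upstream, at -126938 and -155840 bp. The peak at -126938 bp and the intronic peaks of Cacna1a, Cacna1b and Cacna1g were multi-copy, a class explained below. The peak at -155840 bp was single-copy with a centre of purines alone on a single strand. Cacna1e thus had no peak outside such sequence.

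Among the auxiliary calcium channel subunits, the beta subunits, which bind the pore from inside and bring it to the membrane, were the single subfamily with a promoter peak at every gene. These lay at 6 bp for Cacnb1, the nearest of all calcium peaks to its TSS, at 162 bp for Cacnb2, at 173 bp for Cacnb3 and at -45 bp for Cacnb4, and no Cacnb gene had a further peak. Of the alpha2delta subunits, extracellular partners of the pore, Cacna2d1 had a promoter peak at 106 bp and intronic peaks at 138009 and 234620 bp, the latter the farthest calcium peak. Cacna2d2 had a promoter peak at 192 bp and Cacna2d3 one at -287 bp, and Cacna2d4 had none. Of the 8 gamma subunit genes, several of which act on glutamate receptors, Cacng2 and Cacng4 had promoter peaks at -529 and 210 bp. The peak assigned to Cacng3 at -129712 bp, at 1991 bp the widest calcium peak, had its midpoint in an intron of another gene, Prkcb. This Cacng3 peak and the intronic Cacna2d1 peaks were multi-copy. The Cacng7 peak had a deposited distance of -3572 bp, but its midpoint was 58 bp from a Cacng7 start in the GENCODE annotation of mm9.

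Sodium channel genes had few peaks, 10 on 8 genes. Scn8a, a pore known mainly from neurons, had a promoter peak at 375 bp and, at -18811 bp, the widest sodium peak (1406 bp). The sensory neuron pores Scn9a and Scn11a had intronic peaks at 3246 and 14774 bp, the Scn9a peak being the narrowest (568 bp), and the neuronal pore gene Scn1a had an intronic peak at 46713 bp, the farthest. Of the beta subunits, which modify gating and adhesion, Scn4b, also known from the heart, had a promoter peak at -297 bp and Scn3b an upstream peak at -14655 bp. The Scn11a, Scn1a and Scn3b peaks were multi-copy. Scn2b, the pores Scn2a, Scn3a, Scn4a, Scn7a and Scn10a, all 3 epithelial sodium channel genes (Scnn1a, Scnn1b and Scnn1g) and the splicing factor gene Scnm1 had no peak.

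Among potassium channels the voltage-gated pore subunits, the largest subfamily, had a peak at 29 of 40 genes (72.5%) and a promoter peak at 20. Over all protein-coding genes 39.1% had a peak and 24.2% a promoter peak. Of the 48 peaks of this subfamily 18 were multi-copy. Of the delayed rectifiers that repolarise the ventricle, Kcnq1 (slow component) had 1 promoter peak at 131 bp, and Kcnh2 (rapid component) had peaks at 2 separate start sites. These start sites lay 22013 bp apart, with peaks at 145 bp of the upstream start, from 23856759 to 23857795 on chromosome 5, and at 52 bp of the downstream start, from 23834848 to 23835866. The peak centre at the upstream start had 22 CpG and 76.0% GC and the centre at the downstream start 6 CpG and 69.5% GC. The remaining Kcnh2 peak at -1057 bp was separated by 315 bp from the peak at the upstream start. The windows directly upstream of the Kcnq1 start and of the upstream Kcnh2 start held 13 and 22 CpG, in capitals.
Kcnq1, chr7:150293038-150293157, plus strand: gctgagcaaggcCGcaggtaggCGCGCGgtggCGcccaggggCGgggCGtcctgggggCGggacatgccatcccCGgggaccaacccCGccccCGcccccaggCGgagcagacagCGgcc
Kcnh2, chr5:23857424-23857543, minus strand: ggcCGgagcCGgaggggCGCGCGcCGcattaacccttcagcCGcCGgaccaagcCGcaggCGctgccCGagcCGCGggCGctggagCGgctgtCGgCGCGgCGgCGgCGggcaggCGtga
Kcnt1, the sodium-activated potassium channel gene, was the other channel gene with promoter peaks at separate starts, 13988 bp apart (131 and 155 bp). The list gave a single RefSeq accession per channel gene also where distances referred to different starts, which was the case at 10 of the 33 genes with more than 1 peak.

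The transient outward current, which gives the early repolarisation of rodent and atrial myocytes, is carried by Kcnd2, Kcnd3 and Kcna4. Kcnd3 had a promoter peak at 76 bp and an intergenic multi-copy peak at -114483 bp. Kcnd2 had 4 peaks, of which the nearest, at -1027 bp, fell just outside the 1 kb limit (-421 bp in GENCODE), with 34 CpG at its centre. The other Kcnd2 peaks lay at -201593, -189271 and 178332 bp and were all multi-copy, a class explained below. Kcna4 had 2 intergenic multi-copy peaks, at 686523 and 816260 bp, the farthest channel peaks, and Kcna5, which carries the ultrarapid current, had 1 at 79169 bp. Such peaks were assigned to the closest start site, and their positions say nothing of binding at the Kcna4 and Kcna5 promoters.

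The remaining voltage-gated pores with a promoter peak are best known from neurons, lymphocytes or sensory cells. They included Kcna3 (72 bp), Kcnc1 (783 bp), Kcnc2 (-866 bp), Kcnc4 (-578 bp), Kcnh1 (207 bp), Kcnh3 (-204 bp), Kcnh4 (-28 bp, the nearest potassium peak), Kcnq3 (-100 bp) and Kcnq5 (479 bp). The Kcnc channels are fast delayed rectifiers. The silent subunits, which form channels only with other pores, had promoter peaks at Kcnf1 (510 bp), Kcng2 (909 bp), Kcng3 (275 bp), Kcns2 (-319 bp) and Kcns3 (339 bp). In GENCODE this Kcng2 peak was intergenic, at -67012 bp of the closest protein-coding start. Kcnh3 had a further peak 28 bp from its promoter peak, at -1077 bp, and another at -34894 bp. Kcnh1 had intronic peaks at 263176 and 280685 bp, the latter multi-copy. Kcnh8 had 4 peaks, all multi-copy and intergenic, at -6828, -135365, -201332 and -221312 bp. Of the 8 Kcna genes 3 had any peak, a share near the 39.1% of all protein-coding genes.

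Inward rectifiers, which hold the resting potential, had a peak at 7 of 13 genes and a promoter peak at 4: Kcnj12 (66 bp), a subunit of the cardiac resting current, Kcnj11 (169 bp), the pore of ATP-sensitive channels, Kcnj14 (66 bp) and Kcnj4 (-391 bp). Two-pore-domain channels, which carry background currents, had a peak at 8 of 14 genes and a promoter peak at Kcnk2 (-39 bp) and Kcnk4 (399 bp), both mechanosensitive, and at Kcnk9 (-486 bp), Kcnk10 (139 bp) and Kcnk12 (490 bp). Of the 8 calcium- or sodium-activated channels 6 had a peak. Promoter peaks lay there at -63 bp for Kcnma1, the large-conductance channel, at -373 bp for Kcnn2, at 399 bp for Kcnn4 and at both Kcnt1 starts. The counts of these subfamilies stand beside 39.1% of all protein-coding genes with a peak and 24.2% with a promoter peak.

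Auxiliary potassium channel subunits had a peak at 6 of 16 genes (37.5%), near the 39.1% of all protein-coding genes. Of their 16 peaks 12 lay beyond 10 kb and 13 were at multi-copy sequence, and 10 of these 13 came from the genes Kcnip4 and Kcne4. Promoter peaks were found at Kcnip1 (33 bp) and Kcnip3 (219 bp), calcium-binding partners of Kcnd channels, and at Kcnmb4 (-212 bp), a subunit of the large-conductance channel, whose peak centre had 41 CpG. Kcnip4 had the most peaks of all channel genes, 6, between -44432 and -381785 bp, and all were multi-copy. Kcne4, whose product inhibits Kcnq1 channels, had 4 multi-copy peaks between 138216 and 309407 bp. In GENCODE the closest protein-coding start to each of these 4 Kcne4 peaks was that of another gene model, Gm5830. Kcnip1 had further multi-copy peaks at -20924 and -40845 bp.

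Some genes with a promoter peak had a farther peak as well. Examples were multi-copy peaks at 154466 bp for Kcnc2, 116820 bp for Kcnk9, -135541 bp for Kcnk2 and 78514 bp for Kcnn2. Kcnn4 had a single-copy peak at 7412 bp. Besides Kcna4, Kcna5, Kcnd2, Kcnh8, Kcne4 and Kcnip4, 15 more potassium genes had peaks beyond 1 kb alone, with 1 or 2 peaks each. Their distances ran from 1420 bp at Kcnk13, in a UTR of that background channel gene, to -586303 bp at the silent subunit gene Kcnv1, whose peak was multi-copy. Each of the 5 subfamilies of potassium channel subunits had peaks beyond 10 kb.

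**Figure D3:**
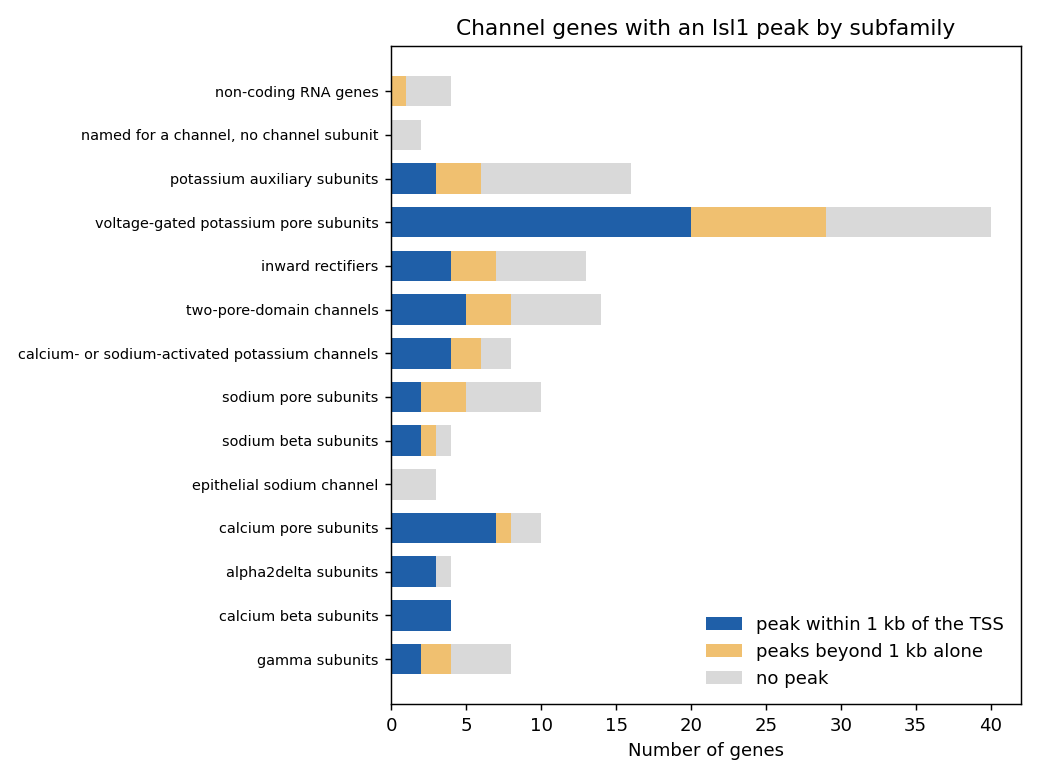
Number of genes in each channel subfamily with an Isl1 peak within 1 kb of the TSS, with peaks beyond 1 kb alone, or with no peak. All 4 calcium beta subunit genes have a promoter peak, and 10 of 16 potassium auxiliary subunit genes and all 3 epithelial sodium channel genes have no peak.

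A list of 23 genes of the cardiac action potential was read across the classes. A peak was assigned to 18 of them (78.3%, 58.1 to 90.3%) and a promoter peak to 15 (65.2%, 44.9 to 81.2%). Among the other 117 channel genes, 66 had a peak (56.4%, 47.4 to 65.0%) and 41 a promoter peak (35.0%, 27.0 to 44.0%). Over all protein-coding genes these shares were 39.1% and 24.2%. The list was written with earlier results of these data known, so its shares are a description and do not show that it differs from the other channel genes. Those with a promoter peak included Scn4b, Cacna1c, Cacna1d, Cacna1g, Cacna1h, Cacnb2, Cacna2d1, Kcnq1, Kcnh2, Kcnd3, Kcnj11 and Kcnj12, and with distal or just-outside peaks alone Kcnd2, Kcna4 and Kcna5. The 5 genes without a peak were Kcne1, the partner of Kcnq1, Kcnip2, the partner of the Kcnd pores in ventricle, the resting-current pore Kcnj2, the vascular ATP-sensitive pore Kcnj8, and Kcnk3, an acid-sensitive background channel. Kcnj2 had no peak in a territory of 704 kb.

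Promoter peaks went with CpG content of the promoter. In the 1 kb around the outermost annotated start, the median number of CpG was 81.5 (range 10 to 141) in the 56 channel genes with a promoter peak, 35.0 in those with peaks beyond 1 kb alone and 26.0 (7 to 100) in those without a peak, and the same medians over protein-coding genes were 81.0, 30.0 and 30.0. Of 32 channel genes with at least 80 CpG, 29 had a promoter peak (90.6%, 75.8 to 96.8%), beside 69.4% (67.9 to 70.9%) of 3832 such protein-coding genes. The exceptions included Kcnd2, whose peak lay at -1027 bp, and Kcnk3, which had no peak. Below 20 CpG a promoter peak was present at 7 of 34 channel genes (20.6%, 10.3 to 36.8%), beside 3.77% of protein-coding genes. The outermost start was not always the one that carried the peak. For Cacna1d it had 19 CpG, while the most CpG-rich annotated start of that gene had 117. When each gene was given its most CpG-rich start, 34 of 38 channel genes with at least 80 CpG had a promoter peak (89.5%, 75.9 to 95.8%) and 4 of 29 below 20 CpG (13.8%, 5.50 to 30.6%), beside 68.8% and 1.23% of protein-coding genes. By these counts the share of channel genes lay above that of protein-coding genes at both ends. The low end is uncertain, because the start scored was not always the one with the peak. Of the 4 genes there, the Kcnma1 and Scn8a promoter peaks lay at -65806 and -62409 bp of the closest annotated protein-coding start. Their centres held 26 and 36 CpG, while the richest annotated starts of these genes held 13 and 19. How often this occurs among protein-coding genes was not tested. By the outermost start, channel genes also lay above protein-coding genes in the bins next to the ends. From 20 to below 40 CpG their share was 23.3% (11.8 to 40.9%), beside 7.32%. From 60 to below 80 CpG it was 66.7% (41.7 to 84.8%), beside 37.2%. In the bin from 40 to 59 CpG the share of channel genes was 12.5% (3 of 24), with an interval that included the protein-coding share of 16.5%. Whether another property shared by channel genes accounts for these differences was not tested.

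**Figure D4:**
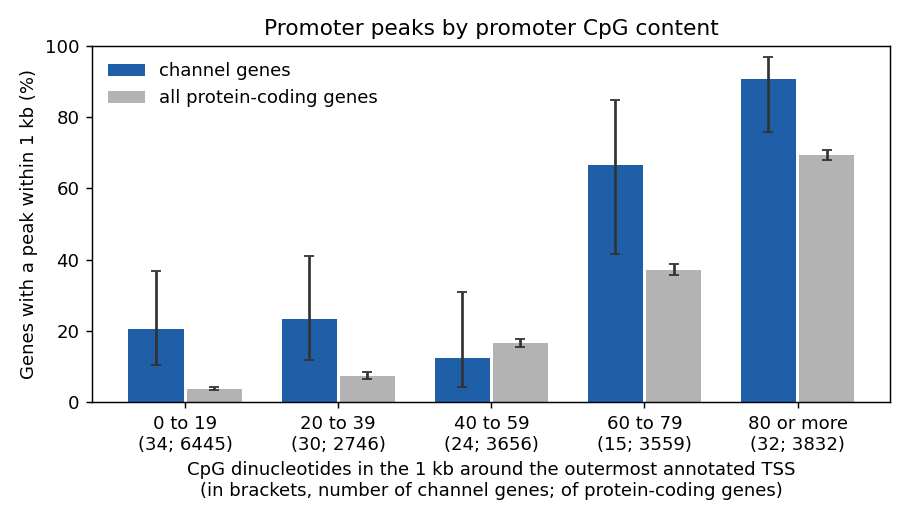
Share of genes with an Isl1 promoter peak (%) against the number of CpG dinucleotides in the 1 kb around the outermost annotated TSS, for 135 channel and 20238 protein-coding genes with a value. Error bars are 95% Wilson intervals, and the share reached 90.6% in channel genes and 69.4% in protein-coding genes with at least 80 CpG.

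The sequence under channel peaks differed between near and far as it did over the whole list. In the central 200 bp, GC content averaged 74.7% ± 6.41 (SD, n = 60 peaks) within 1 kb and 62.7% ± 7.31 (n = 63) beyond 10 kb, with medians of 23.5 and 10.0 CpG. Over all peaks the same means were 73.7% and 61.6% GC and the medians 25 and 11 CpG. Promoter peak centres with few CpG were those of Kcnn4 (3), Kcnj14 (4) and the downstream Kcnh2 start (6), while 56 of the 60 had 10 or more.

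**Figure D5:**
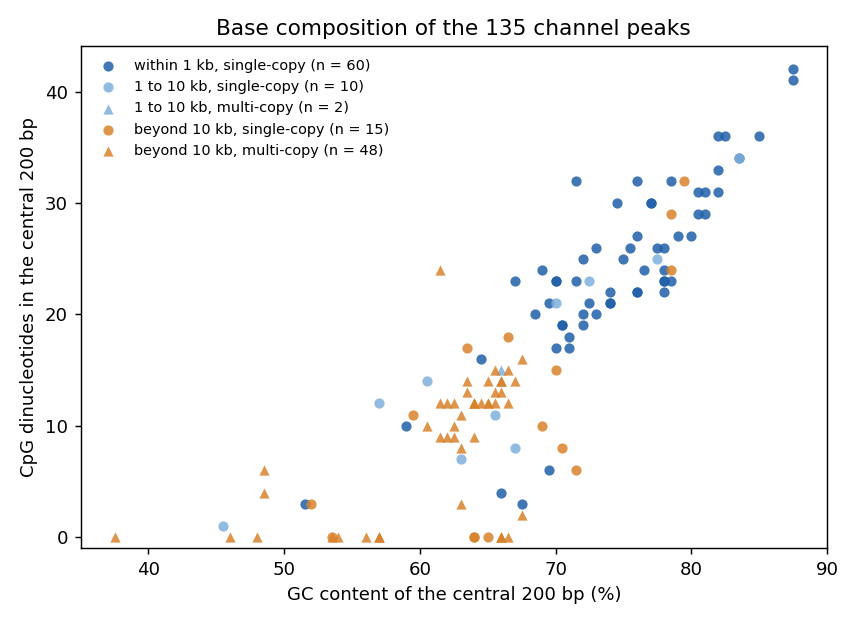
CpG dinucleotides against GC content (%) in the central 200 bp of the 135 channel peaks, coloured by distance to the TSS, with circles for single-copy and triangles for multi-copy sequence. Peaks within 1 kb lie mostly above 70% GC, and multi-copy peaks beyond 10 kb lie mostly between 60.5 and 67.5% GC or at 0 CpG.

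A peak was called multi-copy where the 31-base words of its central 200 bp occurred at least 2 times in the genome, as a median. This held for 50 of 135 channel peaks (37.0%, 29.4 to 45.4%), against 46.5% of all peaks, and for 39 of 95 potassium, 8 of 30 calcium and 3 of 10 sodium peaks. With 75-base words it held for 34 of the 135 (25.2%, against 28.4% of all peaks), namely 29 potassium, 4 calcium and 1 sodium peak. It followed distance. None of the 60 channel promoter peaks was multi-copy (0%, interval up to 6.02%), beside 2.62% of promoter peaks in the whole list, and 48 of the 63 channel peaks beyond 10 kb were (76.2%, 64.4 to 85.0%), beside 81.2%. Where a read is short enough to fit several places, enrichment at the listed position and at other copies cannot be told apart from this list. The read length is not given in the sources used here, so for how many of the 50 peaks this holds is not known. With single-copy peaks alone, 67.9% of potassium and 81.8% of calcium peaks lay within 1 kb, and 45.8% of potassium genes had a peak. The whole list also lay nearer the TSS in this way. The median distance of single-copy peaks was 399 bp for potassium, 246 bp for calcium and 270 bp for all peaks. The share of all protein-coding genes with a single-copy peak is not given here.

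Many multi-copy peaks at different channel genes held the same sequence. Of the 50, 32 shared a 31-base word with another multi-copy channel peak, and the largest set linked in this way had 20 peaks at 14 genes on 11 chromosomes, 19 potassium and 1 calcium (Cacna2d1). Of these, 18 lay beyond 10 kb and 13 over 100 kb away, with centres between 60.5 and 67.0% GC. The most shared word was found in 17 channel peaks (12.6%) and in 1677 peaks of the whole list (11.9%), of which 1603 lay beyond 10 kb, and it occurs 3594 times in the genome. It is printed in capitals within 91 bp from peaks at 4 genes (mm9, the strand that carries the word as printed), to show how alike these peaks are.
Kcnd2, chr6:21344976-21345066, plus strand: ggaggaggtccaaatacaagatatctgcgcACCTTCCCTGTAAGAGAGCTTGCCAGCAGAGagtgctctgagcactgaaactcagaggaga
Cacna2d1, chr5:15577963-15578053, minus strand: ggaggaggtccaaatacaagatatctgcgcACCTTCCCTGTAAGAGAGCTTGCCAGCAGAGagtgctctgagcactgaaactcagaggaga
Kcnip1, chr11:33914282-33914372, plus strand: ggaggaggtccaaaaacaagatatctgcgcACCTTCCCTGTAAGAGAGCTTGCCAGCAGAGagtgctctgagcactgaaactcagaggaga
Kcnh5, chr12:75963297-75963387, minus strand: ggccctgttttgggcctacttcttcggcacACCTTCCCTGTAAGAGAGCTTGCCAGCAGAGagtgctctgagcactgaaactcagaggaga
The Kcnd2 and Cacna2d1 windows were identical over all 91 bases to the Kcnc2 window taken as reference, the Kcnip1 window at 90 bases and this Kcnh5 window at 71, where the flank before the shared word differed. Of the 14 peaks that held the whole window, 8, the reference among them, had the same 91 bases.

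A smaller set of distal peaks lay on strands of almost pure purine (A and G) or pyrimidine (C and T). In 11 of 135 channel peaks (8.15%, 4.61 to 14.0%) at least 90% of the central 200 bp were purines on a single strand, against 11.2% of all peaks. All 11 lay beyond 10 kb, where they were 11 of 63 (17.5%, 10.0 to 28.6%), beside 19.0% in the whole list. They were found at Cacna1a, Cacna1e (both peaks), Cacna1g, Kcna4, Kcnip1, Kcnip4 (2 peaks), Kcnk1, Kcnk2 and Kcnn2, and held 0 CpG. The farther Cacna1e peak counted as single-copy by its 31-base words, as did a Kcnh3 peak at -34894 bp with a long alternation of 2 bases, so that single-copy peaks also include low-complexity sequence. The Kcnh3 sequence is printed, with CpG in capitals.
Kcnh3, chr15:99020453-99020572, plus strand: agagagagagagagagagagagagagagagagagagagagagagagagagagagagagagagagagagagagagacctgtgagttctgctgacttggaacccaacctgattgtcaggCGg

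Among the 15 single-copy peaks beyond 10 kb, 3 had a CpG-rich centre of at least 24 CpG. These were the Kcng1 peak at -11757 bp (24 CpG), which lay 44 bp from an annotated Kcng1 start, the Kcng2 peak at 41499 bp (32 CpG) and the Kcnk1 peak at 143952 bp (29 CpG). In GENCODE this Kcng2 peak lay at -26422 bp of the closest protein-coding start. Other single-copy peaks beyond 10 kb were in coding exons, at 51683 bp in Kcnk12 and at 108255 bp in Cacna1i. With the GENCODE starts, 55 of the 60 promoter peaks were also within 1 kb of an annotated protein-coding start, and 6 peaks beyond 1 kb by the deposited distance were within 1 kb of one. Of the 6, 5 were at starts of the deposited gene, Cacng7, Kcnd2, Kcng1 and Kcnh3 among them, and the Kcnn1 peak lay 334 bp from the start of A230052G05Rik. For 119 of 135 peaks the closest annotated protein-coding start belonged to the deposited gene.

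Strings of the kind that LIM-homeodomain and GATA factors recognise were sought on both strands of the central 200 bp. CTAATTG or CTAATGG occurred in 1 of 135 channel peaks, that of Kcnj1 at 15559 bp (0.741%, 0.131 to 4.08%), beside 0.412% of all peaks. The string GATA with A or T before it and A or G after it occurred in 5 (3.70%, 1.59 to 8.38%), beside 4.22%. The core TAAT, part of the first pair of strings, occurred in 23 (17.0%, 11.6 to 24.3%), beside 19.4%. It was in 2 of 60 channel promoter peaks (3.33%), beside 5.87% of promoter peaks in the whole list. Beyond 10 kb it was in 18 of 63 channel peaks (28.6%), beside 30.5% in the whole list. For each of the 3 searches the share over the 135 channel peaks had an interval that included the share over all peaks. No channel peak lay on chromosome X, where 3 channel genes lie, too few to compare with the 39.1% of protein-coding genes that had a peak.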

How the data were processed

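ChIP-Seq of Isl1 was made by the authors in ES cell-derived CPCs at day 5 (2 ChIP replicates, 1 input). Per the study's methods and the submitters' processing notes, Bowtie2 aligned the reads to mm9, Picard 1.136 removed duplicates, MACS called peaks, bedtools 2.15 kept areas found in both replicates, and HOMER gave each peak its closest TSS. The deposited list holds peak bounds, distances in bp and gene names, with no read depth or peak height. Its 14165 lines gave 14082 distinct peaks. Whether starts count from 0 or 1 is not stated, so they are uncertain by 1 bp.

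Members and lists were chosen with earlier results of these data known. Protein-coding genes were those with an NM transcript in the RefSeq table of GRCm38.p6, which matched 9305 of 9313 names, by symbol, accession or synonym. Gene positions and exons came from GENCODE M1 on NCBI m37 (mm9), which also gave the printed sequences. Midpoints defined the central 200 bp, and copies of 31-mers were counted on both strands, with a counter tested on simulated data. Shares carry 95% Wilson, rates exact Poisson intervals. Named were sodium and calcium genes with a peak, potassium genes with at least 3 peaks or a promoter peak, the action potential list and the extremes of each class. Other genes were named, and the purine measure and most CpG-rich start added, after values were seen. Some genes that the rule names are not reported here, and counts include them. Python 3.11.15, numpy 2.4.6, pandas 2.3.3 and scipy 1.17.1 were used. Alternatives were a width of at least 500 bp, merging within 1000 bp, single-copy peaks, subunit genes alone, GENCODE distances, limits of 2 and 20 kb, 75-mers and repeated lines kept.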

Additional observations from a re-analysis of the deposited data

How the results depend on the processing

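Across 15 results, 81 values were computed under other settings, and 72 stayed within the counting interval of the reported value, or within 1.5 times of it for a count. With single-copy peaks alone, 85 channel peaks were left, the share of potassium genes with a peak was 45.8% with 0.583 peaks per gene, 67.9% of potassium peaks lay within 1 kb and 17.9% beyond 10 kb, and 81.8% of calcium peaks lay within 1 kb and 13.6% beyond 10 kb. These follow from leaving out multi-copy peaks, 48 of 50 of which lay beyond 10 kb. In the whole list 1354 of 7536 single-copy peaks lay beyond 10 kb. A limit of 20 kb in place of 10 kb left 20.0% of sodium peaks beyond it, since 3 of the 5 lay between these limits. With 75-mers, 25.2% of channel peaks were multi-copy. No paired analysis was possible because the list combines both replicates, and for the same reason leaving out each replicate was not run. Peaks called in a single replicate are not in the list, and assignment to the closest start does not show which gene a distal site serves.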
